A study of Mus musculus with 23 samples.

Results

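The 6 placebo tumours (P1 to P6) show the immune, stromal and tumour genes of E0771 primary tumours grown without an active drug, and they are 6 of 23 tumours measured. All 23 grew from E0771 luc2 GFP cells, a mouse mammary tumour line of C57BL/6 origin that carries luciferase and green fluorescent protein, placed in the mammary ducts of female C57BL/6J mice aged 6 to 8 weeks. P mice were given placebo by daily injection under the skin. The other 17 tumours came from mice given Anakinra at 1 mg/kg daily (A, 5 tumours), Doxorubicin at 2 mg/kg per week followed by Zoledronic acid at 100 µg/kg per week (DZ, 6 tumours), or all 3 agents (ADZ, 6 tumours). Anakinra is a recombinant antagonist of the IL-1 receptor, Doxorubicin is an anthracycline and Zoledronic acid is a bisphosphonate. Treatment started 9 days after the cells were injected and ended when the mice were culled on day 23. Every value below comes from bulk tissue of 1 engineered line, so that a lower level of a cell type's genes can mean fewer such cells or less RNA per cell, and these cannot be told apart. The labels do not tie tumours to mice. The study states that each A and each DZ tumour of this experiment came from an animal of its own, and for P and ADZ tumours this is not given in the sources used here.

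The nCounter panCancer mouse immune panel counts RNA molecules directly with 1 barcoded probe pair per gene, without amplification. It covers the genes by which leucocytes are recognised, the cytokines and chemokines through which they are recruited, the MHC molecules that show peptides to T cells, and a set of stromal and tumour genes. In a solid tumour such a profile mixes the transcripts of the cancer cells with those of macrophages, lymphocytes, fibroblasts, vessels and any neighbouring tissue taken with it. Levels are log2 of normalised counts, in which 1 unit is a doubling, and a rank of genes compares counted barcodes and not transcripts per cell, because probe pairs differ in how well they capture their target. Probes for close relatives, such as the H2-Q, Klra and Ccl21 families, can also count each other's transcripts.

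All 770 genes on the panel, 750 endogenous and 20 reference genes, were ranked by their mean over P1 to P6. The 6 libraries held between 939394 counts (P3) and 1677295 counts (P6), and P4 held 1197390. The background, taken as the mean plus 2 SD of a tumour's own negative controls, lay between 4.16 (P6) and 5.31 (P3) log2 units. P4 stood apart from the other 5: over the 770 genes its Pearson correlation with them was 0.868 to 0.914, against 0.968 to 0.989 among the other 5, and its panel median was 9.09 log2 units against 7.94 to 8.32. The reference genes average 11.4 in every tumour by construction. Lists and genes whose mean P4 moves by over 0.25 log2 units are therefore given with P4's own value or without it as well. RNA quality of the tumours is not given in the sources used here, and its part in the difference was not tested.

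Of the 770 genes, 567 (73.6%) were above background in all 6 P tumours and 62 in none. The remaining genes passed in 1 to 5 tumours, and of the 30 that passed in exactly 1 tumour, 21 did so in P4 alone. The means ran from 16.36 log2 units for Vim to 2.63 for Angpt1, with a median of 8.16 over the endogenous genes.

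**Figure D1:**
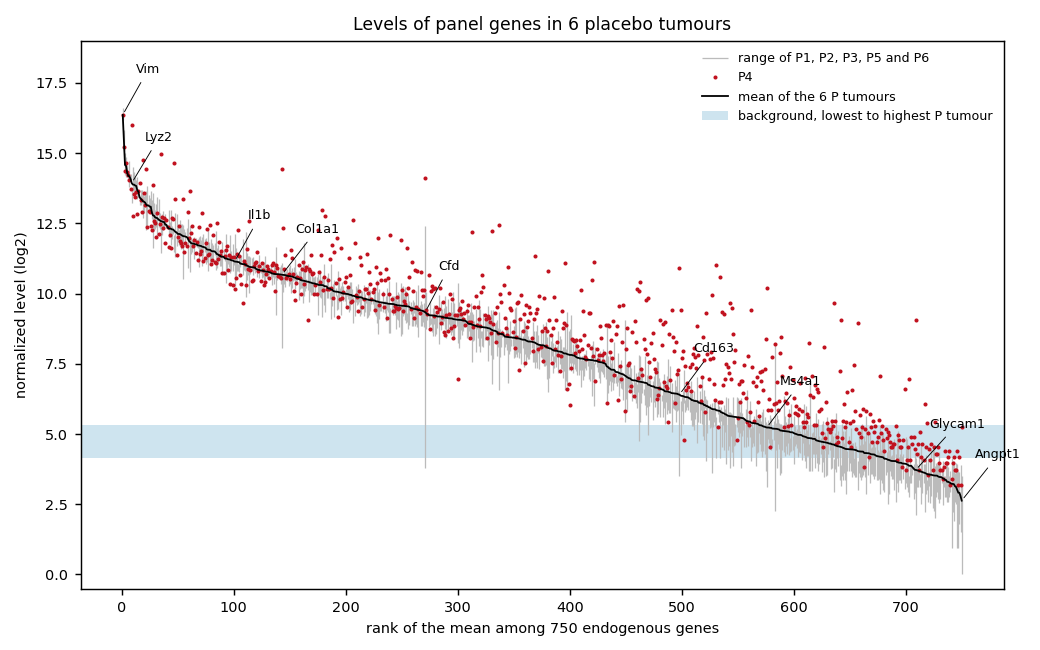
Mean level (log2) of the 750 endogenous genes in 6 placebo tumours against the rank of the mean. The black line is the mean, grey bars span P1, P2, P3, P5 and P6, red points are P4 and the blue band is the range of background. P4 lies near the line for most of the highest genes, though not for Lyz2, and above the other 5 for many genes of the middle and lower ranks.

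Vim, the intermediate filament vimentin of mesenchymal cells, had the highest level on the panel at 16.36 ± 0.17 (SD, n = 6), about 84173 normalised counts. Its values in P1 to P6 were 16.23, 16.26, 16.62, 16.35, 16.52 and 16.18, a spread of 1.35-fold between the lowest and the highest tumour. Lgals3, which encodes galectin-3, averaged 14.54 ± 0.23, and Mif, the macrophage migration inhibitory factor, averaged 14.29 ± 0.15. The transcription factor gene Myc stood at 14.07 ± 0.20, with P4 lowest at 13.71 and the other 5 at 14.04 to 14.27. Also among the 25 highest were the tetraspanin genes Cd63 (14.58 ± 0.34) and Cd9 (13.88 ± 0.64), the integrin gene Itgb1 (13.88 ± 0.41), the glycolytic enzyme gene Gpi1 (13.85 ± 0.29), Hif1a (13.33 ± 0.26), which encodes the oxygen-regulated transcription factor subunit HIF-1α, and Ets1 (13.67 ± 0.51). Anp32b (13.63 ± 0.09) is broadly expressed, and it was the most even of the 25.

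Genes of antigen presentation, the interferon response and myeloid cells were also among the 25 highest. H2-D1, a classical MHC class I heavy chain, was the second gene of the ranking at 15.48 ± 0.34, and its values ran from 15.08 (P5) to 15.81 (P2) with a median of 15.49. Psmb8 (13.24 ± 0.21) and Psma2 (13.10 ± 0.19) encode an immunoproteasome and a proteasome subunit. Bst2, the interferon-induced antiviral protein tetherin, averaged 13.83 ± 0.14, and Ifitm2, another interferon-induced membrane protein gene, 13.42 ± 0.29. Ccl2, the main chemoattractant for monocytes, averaged 14.18 ± 0.38 and was the highest of 36 chemokine genes. Lyz2, the lysozyme of macrophages and neutrophils, averaged 13.93 ± 1.04, but this mean was raised by P4, which stood at 16.01 while the other 5 tumours lay at 13.24 to 13.73.

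The 25 highest genes held between 36.0% and 44.4% of all endogenous normalised counts of a P tumour. Without P4, 23 of the 25 stayed on the list: Cd74 and Col3a1 left it and Itga6 and Psmb7 took their place. Most of the 25 were even between tumours, with SDs from 0.09 (Anp32b) to 1.04 (Lyz2). The 5 least even were Lyz2, Cd74 (13.16 ± 0.82, or 12.91 ± 0.59 without P4), Col3a1 (13.29 ± 0.80, or 13.00 ± 0.38 without P4), Plaur (13.14 ± 0.67), the urokinase receptor, and Cd9. In Cd9 and Plaur it was P4 that lay lowest, at 12.76 and 12.37.

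**Figure D2:**
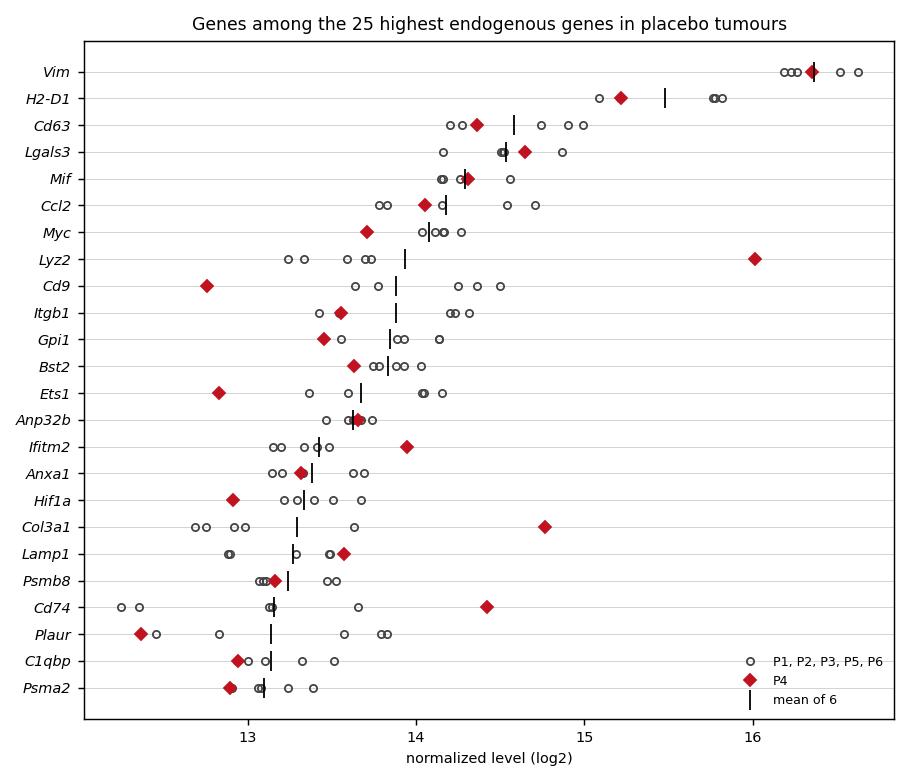
Levels (log2) of 24 of the 25 highest endogenous genes in each of 6 placebo tumours. Open circles are P1, P2, P3, P5 and P6, the red diamond is P4 and the bar is the mean of 6. P4 is far to the right for Lyz2 (16.01) and Col3a1 (14.77) and to the left for Cd9 (12.76) and Ets1 (12.83).

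Macrophage genes had the highest list mean of the leucocyte lineages. Of 23 macrophage and monocyte genes, 21 were above background in every P tumour, against 73.6% of all genes, and the list averaged 9.49 ± 0.62 log2 units (SD, n = 6), or 9.25 ± 0.20 without P4. Cd68, a lysosomal protein of macrophages, averaged 11.78 ± 0.35 and lay between 11.46 and 12.41. Csf1r, the receptor for the macrophage growth factor CSF-1, had 11.99 in P4 and 9.42 to 9.95 in the other 5. Ptprc, the pan-leucocyte marker CD45, averaged 10.08 ± 0.82, with P4 at 11.47 and P3 lowest at 9.15. Emr1, which encodes the macrophage marker F4/80, averaged 10.26 ± 0.52 and overlapped between P4 and the others. The lectin gene CD209e stayed at or below background in all 6 tumours.

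Single macrophage genes differed in how they varied between tumours, and those given next were chosen after their values were seen, apart from Cd163 and Marco. Cd163, the haemoglobin scavenger receptor of resident macrophages, had 7.17, 4.10, 6.35, 10.90, 6.40 and 3.50 in P1 to P6, so that P2 and P6 were at or below background and P4 was the highest. Marco, another scavenger receptor, had 8.18, 6.58, 7.27, 12.45, 7.58 and 9.35, with P4 highest and P6 next. Mrc1, the mannose receptor CD206, had 12.26 in P4 and 9.25 to 10.71 in the others. Nos2, the inducible nitric oxide synthase of inflammatory macrophages, ran the other way, with 7.08, 9.35, 8.21, 6.61, 6.71 and 9.07, so that P2 and P6 were highest and P4 lowest. Arg1, arginase 1, had 11.97 in P4 and 8.55 to 10.05 in the others.

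Granulocyte and dendritic cell genes ranged widely in level within their lists. S100a8, a calcium-binding protein abundant in neutrophils, was high at 12.04 ± 0.93, ranging from 10.53 (P1) to 13.37 (P4). The formyl peptide receptor gene Fpr2 averaged 8.43 ± 0.65. The granule genes Mpo (4.27 ± 0.64), Elane, Camp and Prg2, which are transcribed mainly in immature cells of the bone marrow, were at or below background in every P tumour. Lcn2, the iron-sequestering protein lipocalin 2 of neutrophils and epithelia, averaged 10.70 ± 0.92, with P5 lowest at 9.25 and P2 highest at 11.66. Among 17 dendritic cell genes, 13 were above background in all 6, a share near the 73.6% of all genes. The fungal-pattern receptor gene Clec4n led them at 11.12 ± 0.25, and Irf8, a transcription factor of conventional dendritic cells and monocytes, had 10.47 in P4 and 9.37 to 9.71 in the others. Lamp3 (3.95 ± 0.50) and Cd207 (4.28 ± 0.40), markers of mature dendritic cells and of Langerhans cells, each passed background in 1 tumour.

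The lymphocyte lists averaged below the median gene of the panel. Among T cell genes Cd3g averaged 7.89 ± 0.59 and Cd3e 6.49 ± 1.05 (6.07 ± 0.29 without P4), both chains of the T cell receptor complex, and 10 of 16 list members passed background in every P tumour, against 73.6% of all genes. The top member of the list, Cd3eap (8.31 ± 0.44), encodes an RNA polymerase I subunit despite its symbol. Cd8a, the co-receptor of cytotoxic T cells, had 7.95 in P4 and 5.87 to 6.44 in the others, and Cd4 had 8.47 against 4.94 to 6.18. Foxp3, the transcription factor of regulatory T cells, had 5.56, 4.69, 6.26, 6.89, 6.30 and 3.78, with P6 below its background and P4 highest.

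Of 11 CD8 T and cytotoxic genes 6 were at least 2-fold higher in P4 than the mean of the other 5, beside 37.0% of all genes, and the list mean was highest in P4, but Gzmb and Prf1 were not. The excess of the list mean in P4 was 0.79 log2 units as deposited. It became -0.17 with each tumour centred on its panel median and -0.39 with quantile normalisation. Gzmb, which encodes granzyme B, averaged 7.28 ± 0.51, and its highest tumour was P6 at 8.26, while P4 held 7.08 within the 6.82 to 8.26 of the other 5. Prf1, the pore-forming protein perforin, had 6.38 in P4 and 5.72 to 7.57 in the others. Gzma, another granzyme, had 8.34 in P4 and 7.26 to 8.41 in the others, Klrd1, the NK receptor chain CD94, had 9.11 against 7.55 to 8.67, and Gzmk stayed at or below background in all 6. Of the NK cell genes, the highest were Slamf7 (9.13 ± 0.40), Klra2 (8.83 ± 0.61) and Cd244 (8.42 ± 0.62), all of which are also found on myeloid cells, while Ncr1, the NK receptor NKp46, averaged 5.96 ± 0.51. The Ly49 family members of this list that passed background in no P tumour were Klra1, Klra3, Klra5, Klra15, Klra20 and Klra27.

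The B cell genes Ms4a1 and Pax5 were at or near background in 5 of the 6 tumours and well above it in P4. Ms4a1, which encodes the B cell surface protein CD20, had 4.34, 3.10, 5.35, 10.19, 4.48 and 3.94 in P1 to P6, with P4 far above the rest. Pax5, the transcription factor that maintains B cell identity, had 8.95 in P4 and 3.01 to 4.05 in the others. Cd79a, a chain of the B cell receptor, was closer to background in P4 at 5.38, against 3.01 to 3.35 in the others. Btk (7.97 ± 0.94, or 7.59 ± 0.18 without P4), Blnk (6.52 ± 1.30, or 6.03 ± 0.53 without P4) and Tnfrsf13b (5.88 ± 0.93, or 5.52 ± 0.25 without P4), which pass background in all 6 tumours, are signalling genes shared with myeloid or plasma cells.

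Stromal genes differed in their spread between tumours. Spp1, the matrix protein osteopontin, averaged 12.63 ± 0.42, and Col3a1, the type III collagen of loose connective tissue given above, was less even. Col1a1, the main fibrillar collagen, had 11.10, 8.05, 10.57, 14.42, 10.63 and 9.23 in P1 to P6, with P4 highest and P2 lowest. Fap, the fibroblast activation protein, passed background in 3 of 6 tumours, with 8.38 in P4 and 3.69 to 5.44 in the others. Among vessel genes Eng, the endothelial co-receptor endoglin, was among the steadiest genes on the panel as deposited, at 10.78 ± 0.08. Pecam1, which encodes CD31, averaged 9.07 ± 0.70 with P3 and P5 lowest. Angpt1, the ligand of the endothelial receptor Tie2, had the lowest mean of all endogenous genes, and it exceeded background in P4 alone, at 5.24.

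The line is labelled as breast cancer, and its epithelial markers were detected at low levels. Epcam, the epithelial adhesion molecule, averaged 5.69 ± 1.21 (5.33 ± 0.92 without P4) and passed background in 5 of 6 tumours, with P6 below it at 3.94. Cdh1, which encodes E-cadherin, averaged 6.43 ± 0.64 and passed in all 6, between 5.83 and 7.28. The receptor genes Erbb2 (9.23 ± 0.41) and Egfr (9.56 ± 0.40) were higher. Averaged over 17 epithelial and tumour genes the level was 9.08 ± 0.15 (SD, n = 6), and P4 at 9.15 lay within the 8.83 to 9.23 of the other 5 as deposited. This depends on the scaling: P4 minus the other 5 was -0.88 log2 units with each tumour centred on its panel median. With quantile normalisation it was -0.75. Spink5, a protease inhibitor of stratified epithelium, stayed at or below background in every P tumour.

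Anakinra blocks the IL-1 receptor, and the list of the IL-1 family and inflammasome holds that receptor, its ligands and adaptors, IL-18 with its receptors and inflammasome genes. Of its 22 genes, 20 passed background in all 6 placebo tumours, against 73.6% of all genes. Il1rap, the accessory chain of the receptor, was highest at 11.66 ± 0.40. Il1b, the cytokine, had 10.92, 12.11, 11.49, 10.15, 10.27 and 11.91 in P1 to P6, with P2 and P6 highest and P4 and P5 lowest. Il1rn, the natural receptor antagonist of which Anakinra is the recombinant form, had 10.68, 11.93, 11.75, 9.68, 10.74 and 11.52, again with P4 lowest. The signalling receptor gene Il1r1 was even at 10.70 ± 0.30, and the decoy receptor gene Il1r2 averaged 9.09 ± 0.47. Il1a, the membrane-associated cytokine, averaged 6.51 ± 0.83, with P2 highest at 7.68 and P4 lowest at 5.43. The list mean was 8.76 ± 0.15 (SD, n = 6).

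Other interleukin and interferon ligands ranged from well above background to below it. Of 25 interleukin genes outside the IL-1 family, 9 passed in all 6 tumours, against 73.6% of all genes, and 12 in none, against 62 of 770 genes. Il34, the second ligand of the CSF-1 receptor, led at 9.84 ± 0.21, followed by Il24 (9.07 ± 1.31, or 9.49 ± 0.91 without P4) and Il15 (6.98 ± 0.43), which sustains NK and memory T cells. The type 2 cytokine genes Il4, Il5 and Il13 and the IL-17 genes Il17a and Il17f passed in no P tumour. None of 6 interferon ligand genes passed background in all 6 tumours, and Ifng, the type II interferon of T and NK cells, averaged 5.22 ± 0.55 and passed in 4.

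Interferon-stimulated genes, by contrast, were high, and their list mean had the smallest SD of 29 lists over the 6 tumours. Without P4 the list means of apoptosis and cell cycle (SD 0.07), MHC class I (0.09), Toll-like receptor (0.09) and chemokine receptor genes (0.10) were more even. By the median SD of single genes, the apoptosis and cell cycle list was more even over the same 6 tumours, at 0.238 against 0.349. The evenness of the interferon list mean depends on the scaling. With each tumour centred on its panel median its SD was 0.45, against 0.097 for the Toll-like receptor list, and with quantile normalisation it was 0.29. Of 28 such genes 26 passed background in all 6 tumours, against 73.6% of all genes, and the list mean lay between 10.12 (P1) and 10.40 (P3) with an SD of 0.10, or 0.11 without P4. P4 stood at 10.25, inside the range of the others as deposited. Ifi44 averaged 12.45 ± 0.35 and Irf1, a transcription factor induced by interferon gamma, 12.32 ± 0.48. Single genes still differed: Isg15, a ubiquitin-like modifier, had 10.39, 10.53, 12.09, 11.56, 12.10 and 10.79 in P1 to P6, with P3 and P5 above the rest. Mx1 (4.32 ± 0.26) was near background, and it is known to be defective in many inbred mouse strains.

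MHC class II genes were high but uneven. Their list mean was 9.36 ± 0.78 (SD, n = 6), or 9.09 ± 0.46 without P4. H2-Aa, the class II alpha chain, had 12.95, 12.92, 11.62, 13.87, 11.76 and 13.57 in P1 to P6, and Cd74, the invariant chain that guides class II molecules, had 13.13, 13.15, 12.25, 14.42, 12.36 and 13.65. In both genes P4 was highest, P6 next, and P3 and P5 lowest. H2-Eb1, a beta chain, had 10.82, 10.66, 10.01, 12.58, 10.27 and 11.35, and H2-DMb1, part of the peptide-loading chaperone, had 9.91, 10.26, 8.72, 9.49, 8.79 and 10.43. H2-DMb1 thus had P6 and P2 highest and P3 and P5 lowest, with P4 between them. The class I list was more even at 9.44 ± 0.21.

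Promoter sequences are shown for 3 of these class II genes, which were all lowest in P3 and P5, and for 2 interferon-stimulated genes, Isg15 and Bst2. Each runs from 250 bases before to 50 bases after the annotated start on the gene's strand (RefSeq, GRCm38.p6). Capitals mark GATTGG, the core of the Y box (which holds the CCAAT box in reverse), in the class II promoters and GAAANNGAAA, the core of the interferon-stimulated response element, in the other 2, both searched on both strands. In H2-Eb1 the second match is on the opposite strand, and the matches in Isg15 and in Bst2 overlap one another.
H2-Aa, chr17:34287774-34288073, minus strand: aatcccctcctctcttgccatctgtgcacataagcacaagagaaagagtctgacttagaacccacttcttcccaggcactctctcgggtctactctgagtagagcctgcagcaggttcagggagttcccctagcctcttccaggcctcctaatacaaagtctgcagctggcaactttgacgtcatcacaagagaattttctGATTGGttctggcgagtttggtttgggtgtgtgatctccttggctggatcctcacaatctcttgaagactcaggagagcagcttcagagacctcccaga
H2-Eb1, chr17:34305617-34305916, plus strand: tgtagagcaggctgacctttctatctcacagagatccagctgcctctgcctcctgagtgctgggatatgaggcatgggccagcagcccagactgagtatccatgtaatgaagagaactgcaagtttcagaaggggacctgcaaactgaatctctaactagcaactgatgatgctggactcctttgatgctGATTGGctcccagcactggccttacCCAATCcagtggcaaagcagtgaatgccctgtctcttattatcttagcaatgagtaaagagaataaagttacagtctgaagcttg
H2-DMb1, chr17:34152941-34153240, plus strand: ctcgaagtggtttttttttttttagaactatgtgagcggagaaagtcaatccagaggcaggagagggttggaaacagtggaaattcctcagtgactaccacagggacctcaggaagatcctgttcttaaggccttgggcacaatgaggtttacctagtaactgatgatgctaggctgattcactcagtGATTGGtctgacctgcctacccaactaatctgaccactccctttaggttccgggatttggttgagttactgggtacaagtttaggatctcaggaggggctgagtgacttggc
Isg15, chr4:156200769-156201068, minus strand: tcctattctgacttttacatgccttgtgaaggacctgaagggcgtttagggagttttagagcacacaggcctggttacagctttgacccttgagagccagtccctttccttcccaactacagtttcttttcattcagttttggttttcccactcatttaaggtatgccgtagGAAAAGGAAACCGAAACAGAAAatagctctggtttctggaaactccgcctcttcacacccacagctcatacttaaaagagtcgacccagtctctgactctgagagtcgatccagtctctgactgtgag
Bst2, chr8:71537423-71537722, minus strand: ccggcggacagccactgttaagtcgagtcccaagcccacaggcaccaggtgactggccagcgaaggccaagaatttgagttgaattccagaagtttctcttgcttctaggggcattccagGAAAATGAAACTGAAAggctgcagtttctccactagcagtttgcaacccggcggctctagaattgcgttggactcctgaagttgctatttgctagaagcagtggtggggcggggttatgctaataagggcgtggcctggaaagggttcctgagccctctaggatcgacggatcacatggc

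GATTGG occurred in the promoters of 6 of the 7 class II list genes that had an entry, and in 18.2% of the 27025 genes in the promoter table. GAAANNGAAA occurred in 9 of 19 interferon-stimulated genes with an entry, against 3.99% of all genes and 8.80% of the panel genes with an entry. A match is a description of the letters in this window and not of a factor's binding.

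Checkpoint and chemokine genes completed the profile. Cd274, which encodes PD-L1, was the highest of 24 checkpoint and costimulation genes at 10.79 ± 0.39, with P2 highest at 11.32 and P1 lowest at 10.38. The T cell side was lower: Pdcd1, which encodes PD-1, averaged 6.86 ± 0.50 and Ctla4 6.90 ± 0.79 (6.63 ± 0.47 without P4), both above background in all 6. Cd40, an activating receptor of antigen-presenting cells, averaged 10.57 ± 0.57, and Ido1, a tryptophan-degrading enzyme, passed background in 2 tumours. After Ccl2 the highest chemokine genes were Ccl9 (12.23 ± 1.20, or 11.75 ± 0.25 without P4) and Ccl8 (11.84 ± 1.05, or 11.48 ± 0.63 without P4). The interferon-induced chemokine gene Cxcl10 was even at 11.39 ± 0.26, while Cxcl9, its close relative, had 11.28, 12.18, 10.72, 10.30, 9.87 and 11.75 in P1 to P6. Of the complement genes, C1qb (12.20 ± 0.81, or 11.96 ± 0.65 without P4) and C1qa (11.67 ± 0.71, or 11.42 ± 0.44 without P4), both made by macrophages, were high. In the same list 7 of 30, including C8a, C9 and Mbl2 of the liver, passed background in no P tumour, against 62 of 770 genes.

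The 10 lowest endogenous means belonged to Angpt1, Foxj1, C8a, Il9, Cd46, Pnma1, H2-Ea-ps, Mnx1, Il4 and Masp2. Of these, 8 were also among the 10 lowest without P4. All but Angpt1 were at or below background in all 6 tumours, so that the order among them carries no information. At this depth a gene at background cannot be told from an absent one.

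**Figure D3:**
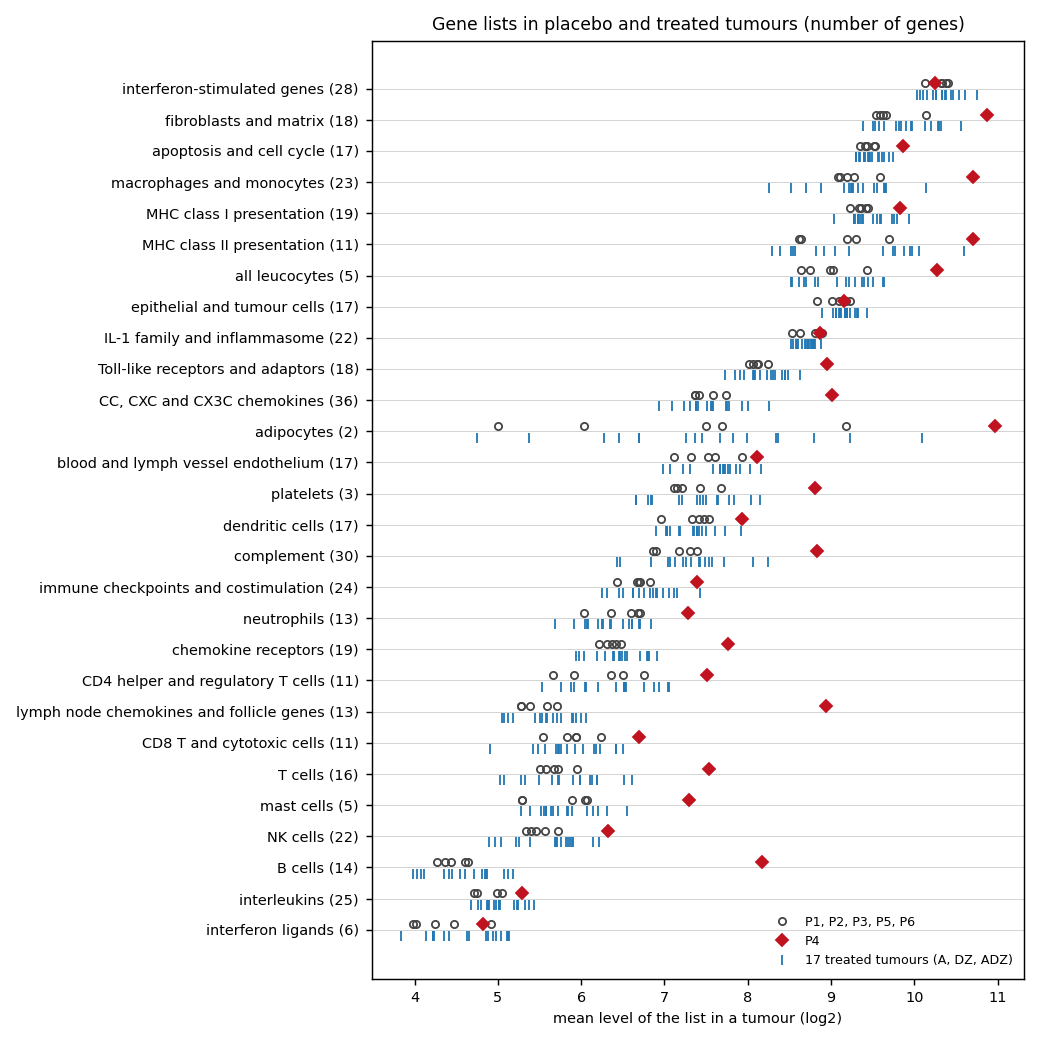
Mean level (log2) of 28 gene lists in each tumour, with placebo tumours above the line of each list and 17 treated tumours below it. Red diamonds are P4 and open circles the other 5 placebo tumours. As deposited, P4 lies beyond the other placebo tumours for B cells (8.17) and lymph node genes (8.94) and among them for interferon-stimulated genes (10.25) and epithelial and tumour genes (9.15).

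Between the 6 P tumours the median gene had an SD of 0.522 log2 units, and 106 genes (13.8%) had an SD of at least 1. Without P4 the median SD was 0.351 and 19 genes reached an SD of 1. The same median was 0.375 in A, 0.446 in DZ and 0.434 in ADZ, and the counts were 30, 44 and 59 genes. Gene by gene, the SD in P was larger than in A for 568 genes, than in DZ for 483 and than in ADZ for 507. Without P4 these counts were 392, 267 and 279 of 770 genes, with no tumour left out of the other groups. These values describe the tumours and were not tested.

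**Figure D4:**
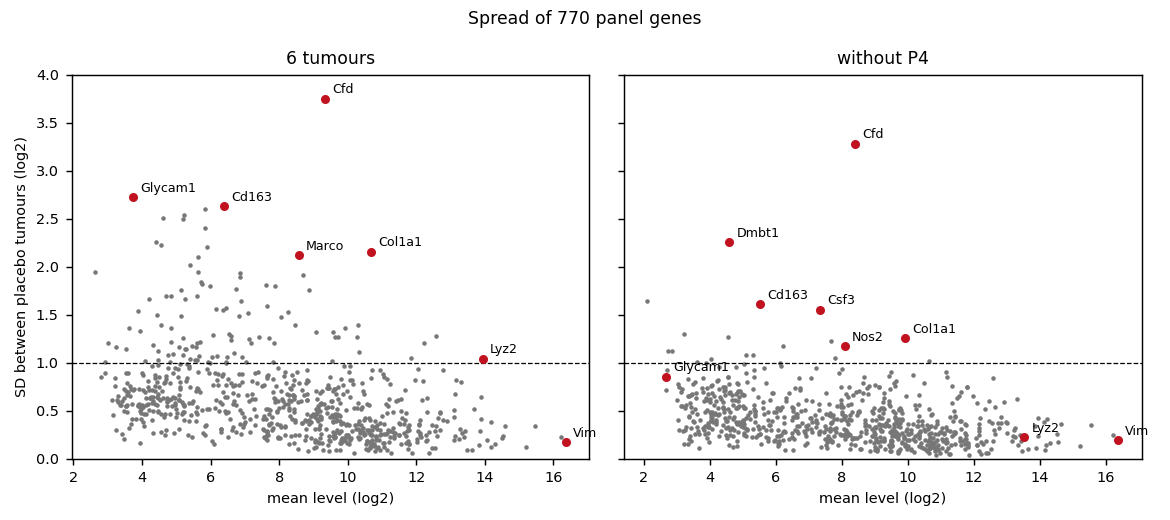
SD between placebo tumours (log2) against the mean level (log2) of 770 genes, for 6 tumours and without P4. The dashed line is an SD of 1, which 106 genes reach with P4 and 19 without it. Cfd stays the most uneven gene in both panels, while Lyz2 drops to an SD of 0.22.

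Cfd was the most uneven gene in the P tumours. It encodes adipsin (complement factor D), which is secreted mainly by fat cells, and its values in P1 to P6 were 12.40, 6.65, 9.54, 14.10, 9.55 and 3.78, from at or below background in P6 to among the highest genes of P4. Dmbt1, a secreted glycoprotein of epithelial surfaces, had 8.25, 3.69, 3.81, 8.19, 4.89 and 2.27, so that P1 and P4 were high and the other 4 low. The next on this scale among genes above background in at least 3 tumours were Cd163, Ccl21a (5.85 ± 2.60), Cd79b (5.82 ± 2.41), Ccl19 (5.89 ± 2.21), Col1a1 and Marco. Further down came Cmah (5.64 ± 2.10), the enzyme for N-glycolylneuraminic acid, Btla (5.40 ± 2.02), an inhibitory lymphocyte receptor, Timd4 (5.62 ± 1.95), a phosphatidylserine receptor of resident macrophages, the complement gene C4b (8.70 ± 1.92), the eosinophil chemokine gene Ccl11 (6.87 ± 1.90) and the class II gene H2-Ob (5.73 ± 1.84). Without P4 these genes had lower SDs, as given here by the mean and SD over the other 5 tumours for Ccl21a (4.81 ± 0.69), Cd79b (4.87 ± 0.64), Cmah (4.83 ± 0.78), Btla (4.60 ± 0.49), Timd4 (4.85 ± 0.54), C4b (8.00 ± 0.94), Ccl11 (6.22 ± 1.17), Ccl19 (5.08 ± 1.07) and H2-Ob (5.02 ± 0.66), while Cfd kept an SD of 3.28 and Dmbt1 one of 2.25.

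Among the steadiest genes, Atf1 (10.18 ± 0.06), Trp53 (11.26 ± 0.06) and Ewsr1 (12.37 ± 0.06) had SDs of 0.06 log2 units, and Eng, Mapk11, Ikbkb, Fyn and Atg7 SDs of 0.08 or 0.09. Trp53 encodes the tumour suppressor p53. Which genes are steadiest depends on the scaling. With each tumour centred on its panel median, P4 minus the other 5 was -0.97 log2 units for Atf1 and -0.87 for Trp53. It was -0.98 for Ewsr1 and -1.08 for Eng. Across the panel 142 genes had an SD under 0.25, and 230 did so without P4. The 20 reference genes, from which the scaling is taken, had a median SD of 0.190.

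In the 5 tumours other than P4, 19 genes had an SD of at least 1, and they were singled out after their values were seen. P2 and P6 both lay below P1, P3 and P5 in 9 of the 19 and both above them in 5, beside 148 and 154 of all 770 genes. The 5 without this split were Marco, Mme, Cd46, Il9 and Masp2. Cfd, Col1a1, Cd163, Ccl11, Ccl19 and Foxp3 were lowest in P2 and P6 and higher in P1, P3 and P5. Ccl11 had 7.81 in P1, 6.56 in P3 and 6.51 in P5, against 4.74 in P2 and 5.50 in P6. Csf3, which encodes the neutrophil growth factor G-CSF, ran the other way with 6.35, 8.76, 7.10, 5.81, 5.45 and 9.06 in P1 to P6, and so did Nos2, given above, and Lcn2. Cx3cl1, the membrane-bound chemokine fractalkine, had 8.23, 8.86, 6.56, 6.11, 6.16 and 8.53, with P1, P2 and P6 high. P2 and P6 also had the 2 largest libraries of the 6, at 1518816 and 1677295 counts, and the part of library size in the split was not tested. Il9, Masp2, Cd46 and Angpt1 are among the 19 only through counts at the background.

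P4 was the highest of the 6 tumours for 429 of 770 genes (55.7%) and the lowest for 96. It exceeded the mean of the other 5 at least 2-fold for 285 genes (37.0%) and lay at least 2-fold under it for 18 (2.34%). The median gene was 0.61 log2 units higher in P4, and P4 was above all 22 other tumours of the series in 293 genes. When every tumour was centred on its panel median, the counts became 120 higher and 177 lower and the median difference -0.35, so that the direction of small differences in P4 depends on the scaling.

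Most of the 10 largest excesses in P4 were in B cell and lymph node genes, and fat cell and collagen genes were higher in the same tumour. Glycam1, a mucin-like glycoprotein of high endothelial venules that is also made in the mammary gland, had 9.06 in P4 and 2.10 to 4.16 in the other 5, which were all at or below background. Ccl21a, a chemokine that draws T cells and dendritic cells to lymph nodes, had 11.01 in P4 and 4.15 to 5.60 in the others. Cxcl13, the chemokine of B cell follicles, had 9.66 against 2.95 to 4.11. Cd79b, a chain of the B cell receptor, had 10.59 against 4.16 to 5.90. Ms4a1, Cfd, Pax5, Cd163 and Ccl19 were also among the 10 largest excesses.

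The lists show how far this went beyond the shift of the whole panel. As deposited, all 14 B cell genes were at least 2-fold higher in P4, with a median excess of 3.47 log2 units. So were 12 of 13 lymph node genes (median 3.52) and 15 of 16 T cell genes (median 2.01), beside 37.0% and 0.61 over all genes. The macrophage list had 14 of 23 such genes (median 1.46), the complement list 20 of 30 (1.41) and the class II list 7 of 11 (1.30). Of the 14 B cell genes, 11 passed background in only some P tumours. With values under background raised to it, Cd79a and Tnfrsf17 were under 2-fold higher in P4, by 0.78 and 0.69 log2 units. The other B cell genes stayed at least 2-fold higher. The complement genes C7, C8a and Cd46 (0.51 each), Cd59b (0.76) and Masp1 (0.87) were also under 2-fold higher with values so raised. So was the T cell gene Cd96 (0.80). The excess of the list mean was then 3.1 for B cells, against 3.7 as deposited. For lymph node genes it was 3.0, against 3.5, and for complement genes 1.55, against 1.70. Both adipocyte genes were higher: Pparg, the regulator of fat cell differentiation, had 7.83 in P4 and 5.43 to 6.23 in the others. With each tumour centred on its panel median, the list means of B cells, lymph node genes and adipocyte genes exceeded the other 5 by 2.74, 2.52 and 2.92 log2 units. On that scale the excess was 0.89 for T cells, against 1.85 as deposited, 0.49 for macrophages, against 1.45, 0.73 for complement, against 1.70, and 0.65 for class II genes, against 1.62. The lists share 2 genes between B cells and lymph node genes (Cr2 and Fcer2a).

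Other genes followed the panel shift less or not at all. Of 28 interferon-stimulated genes 1 was at least 2-fold higher in P4, of 22 IL-1 family and inflammasome genes 4 were higher and 3 lower, and of 17 epithelial and tumour genes 2 were higher and 1 lower. Over all genes 37.0% were at least 2-fold higher and 2.34% at least 2-fold lower. With each tumour centred on its panel median, P4 minus the other 5 was -1.03 log2 units for the interferon-stimulated list. On that scale it was -0.84 for the IL-1 family and inflammasome list and -0.88 for the epithelial and tumour list. The largest deficits were in Il24 (6.95 in P4, 8.23 to 10.37 in the others), a cytokine of the IL-10 family, and in Sele (6.03 against 7.53 to 8.73), the E-selectin of activated endothelium. They were followed by Csf2 (4.78 against 6.12 to 7.29), which encodes GM-CSF and was below background in P4, Clec7a (9.05 against 10.12 to 11.06), the β-glucan receptor dectin-1, and Il1rn. Centring on the panel median lowers P4 against the other 5 in every gene, so it could only deepen these deficits. Il24, Sele, Csf2, Clec7a and Il1rn were chosen for their deficit, and in each of them P4 did not overlap the other 5.

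**Figure D5:**
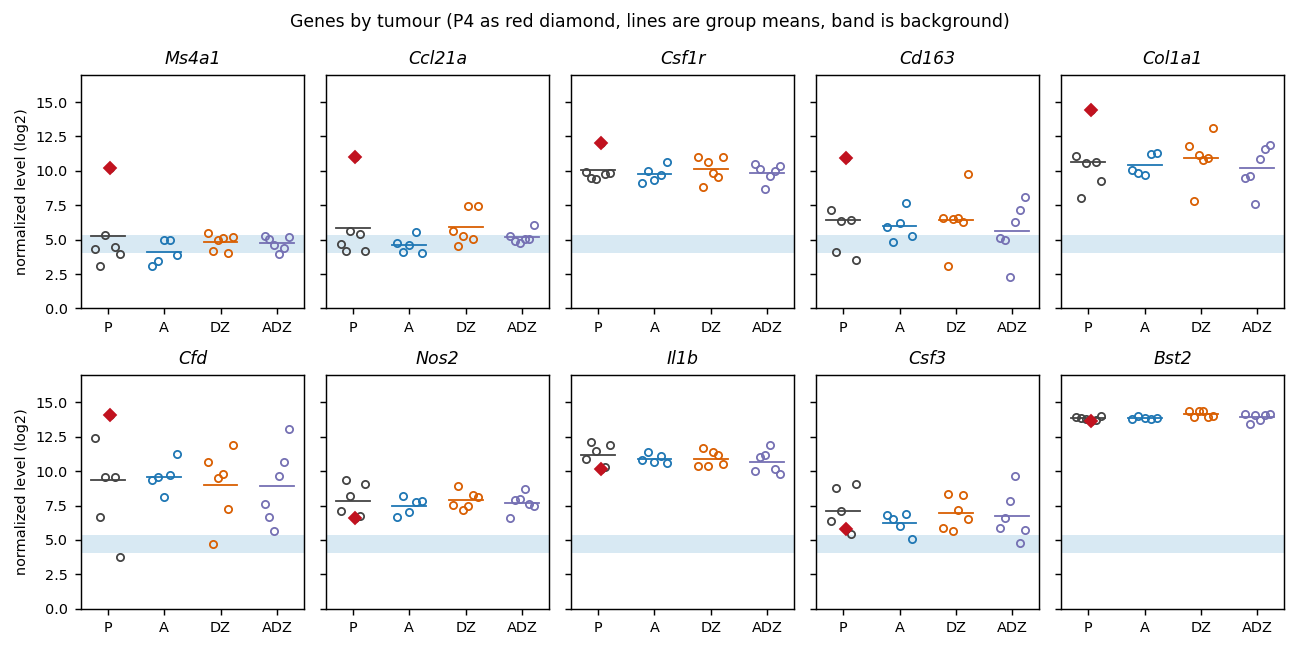
Levels (log2) of 10 genes in each tumour, with P on the left and A, DZ and ADZ to its right. The red diamond is P4, lines are group means and the blue band is the range of background over 23 tumours. P4 stands above every other tumour for Ms4a1 (10.19) and Ccl21a (11.01) and among them for Il1b (10.15) and Bst2 (13.63).

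The placebo tumours were then compared with the 17 treated tumours, to see which of these levels set them apart from the rest of the series. With limma over all 770 genes, contrasting P with the mean of A, DZ and ADZ, 0 genes (0%) passed a Benjamini-Hochberg adjusted p of 0.05, and the smallest adjusted p was 0.99987. Differences of opposite sign in single treated groups would cancel in this mean, and P was not tested against each group alone. At an unadjusted p under 0.05 there were 5 genes (0.649%), 1 higher (0.130%) and 4 lower (0.519%) in P, so that no gene passed the test against the spread between tumours. Marco was 1.39 ± 0.67 log2 units higher in P (SE; unadjusted p = 0.049, adjusted p = 0.99987 by limma), at 8.57 in P and 7.18 in the treated groups. Without P4 the difference in Marco was 0.61 (unadjusted p = 0.28). Il34 differed by -0.36 ± 0.12 (SE; unadjusted p = 0.0079, adjusted p = 0.99987 by limma), with 9.77, 9.99, 10.11, 9.51, 9.91 and 9.76 in P1 to P6 and 9.81 to 10.68 in the 17 treated tumours, so that the groups overlap. Itgb4, an epithelial integrin chain, differed by -0.44, the adhesion protein gene Lrrn3 by -0.51 and Nt5e, the adenosine-producing enzyme CD73, by -0.45.

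The sign of the many small differences turned with P4. Over all genes 456 were higher and 314 lower in P than in the treated groups, against 243 higher and 527 lower without P4, and 239 higher and 531 lower with every tumour centred on its panel median. For 528 of 770 genes the values of P1, P2, P3, P5 and P6 lay within the range of the 17 treated tumours. For Cd163 that range was 2.32 to 9.74. For Cfd it was 4.73 to 13.08, and P6 lay below it at 3.78. For Ms4a1 and Pax5 no treated tumour reached P4: Ms4a1 was 10.19 in P4 and at most 5.46 in treated tumours, and Pax5 was 8.95 in P4 and at most 4.78 in treated tumours.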

How the data were processed

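From each of 23 E0771 tumours, 150 ng of RNA was hybridised to the nCounter panel. The authors used nSolver 4.0 (with Advanced Analysis, version 2.0) for normalisation, and the deposited values are log2 of normalised counts for each tumour. Within a tumour the gene values are log2 of whole counts times 1 factor (tolerance 0.05 counts, 0.806 to 1.30 in P tumours), which sets the mean of the 20 reference genes to 11.4, while the 8 negative and 6 positive controls carry no factor. The factor puts each tumour's depth on a common scale, so that a tumour with more panel RNA in total than its reference genes predict is higher for many genes at once.

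Means, SDs and ranks were computed over P1 to P6 as deposited, with no test. Background was the mean plus 2 SD of a tumour's negative controls times its factor. P tumours were contrasted with the mean of A, DZ and ADZ in limma 3.58.1 (R 4.3.3; lmFit, eBayes, two-sided, Benjamini-Hochberg over 770 genes), which was tested on simulated data. Intervals from counting error were not used.

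Named genes were the 25 highest and 10 lowest means, the 15 largest and 10 smallest SDs, the 10 largest excesses and 5 largest deficits of P4, the 3 highest and 2 lowest members of each gene list, the 5 smallest p, and a short set of lineage and IL-1 genes. Others, such as Mrc1, Isg15, H2-DMb1, Csf3, Nos2 and Cx3cl1, were added after their values were seen. A few genes that these rules name are not reported here. The gene lists and the choice of P4 were made with earlier results of these data known. Of 770 symbols, 754 matched RefSeq symbols, 8 a synonym and 8 neither. Alternatives were leaving out each tumour, other scalings, backgrounds, pseudocounts and filters, and a block for the replicate number.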

Additional observations from a re-analysis of the deposited data

Results flagged for a closer look

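Within the 6 P tumours a gene was singled out where its highest or lowest tumour lay farther from the rest than Dixon's 95% critical value for 6 samples allows. Chance alone marks about 1 in 20 genes, and 141 of 770 (18.3%) were marked, 129 of them through a high P4. The genes share the same 6 tumours, so that 1 tumour apart can mark many at once, and the share is not a test. The marks were taken on the deposited values only, on which the median gene was 0.61 log2 units higher in P4. Of 189 named genes 35 were marked, 31 through a high P4.

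Among lymphocyte genes the level in P4 was 10.19 for Ms4a1, 8.95 for Pax5, 5.38 for Cd79a and 10.59 for Cd79b. It was 8.99 for Blnk, 9.87 for Btk, 7.72 for Tnfrsf13b, 6.97 for Fcer2a and 9.29 for H2-Ob. For T cell and shared lymphocyte genes it was 6.59 for Cd2, 8.47 for Cd4, 7.95 for Cd8a, 9.36 for Lck and 9.43 for Btla.

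Genes of lymph node traffic followed, with 11.01 for Ccl21a, 9.66 for Cxcl13 and 9.06 for Glycam1. The myeloid genes were Lyz2 at 16.01, Csf1r at 11.99, Ccl9 at 14.65, Ccr2 at 10.84, Irf8 at 10.47, Timd4 at 9.48 and Tlr5 at 7.20. With each tumour centred on its panel median, Irf8 was not higher in P4 (-0.02 log2 units against the other 5). Stromal, fat and other genes were Fap at 8.38, Jam3 at 7.39, Pparg at 7.83, Cmah at 9.68, Ppbp, a platelet chemokine, at 11.34, Cma1, a mast cell chymase, at 10.80, and Prg2, which stayed under background, at 5.08.

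The tumours marked for other genes were P6 for Gzmb (8.26), P3 for Ifi44l (4.35, under background) and P1 for Il9 and Masp2 (0.94 each, under background).

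Of 29 list means 11 were marked, all through a high P4. They were B cells (8.17), T cells (7.54), macrophages and monocytes (10.70), platelets (8.81), lymph node chemokines and follicle genes (8.94), MHC class I presentation (9.83), chemokines (9.01), chemokine receptors (7.76), complement (8.82), Toll-like receptors (8.94) and apoptosis and cell cycle (9.86). With each tumour centred on its panel median, P4 was lower than the other 5 in some of them. The difference was -0.49 log2 units for MHC class I, -0.13 for Toll-like receptors and -0.55 for apoptosis and cell cycle. In the other marked lists P4 stayed higher on that scale.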

How the results depend on the processing

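The counts of genes above background in every P tumour (567) and in none (62) and the 25 highest genes kept their size under every alternative run, at 545 to 586 genes, 48 to 83 genes and 23 to 25 shared genes. The count of genes with an SD of at least 1 (106) was 19 without P4 and 124 at most with 1 tumour left out. It was 66 with quantile normalisation, 56 over genes above background in all 6 tumours and 65 with a pseudocount of 20. The count of genes at least 2-fold higher in P4 (285) was 120 with each tumour centred on its panel median and 122 with quantile normalisation. No alternative gave a gene at an adjusted p under 0.05 between P and treated tumours by limma. At an unadjusted p the 1 higher and 4 lower genes became 0 to 13 higher and 2 to 9 lower with 1 tumour left out, the 13 without P5, where the smallest adjusted p was 0.449, and 0 higher and 7 lower without P4. They became 5 higher and 4 lower with the replicate block, 1 higher and 13 lower with centring on the panel median, 8 higher and 11 lower with quantile normalisation, 2 higher and 6 lower with a pseudocount of 20, 0 higher and 5 lower with an ordinary linear model, and 2 higher and 6 lower with the treated tumours as 1 group. The causes were not tested. Same-numbered tumours did not deviate together throughout, since 4 of 5 pairs of P and A tumours, 1 of 6 of P and DZ and 1 of 6 of P and ADZ correlated above 0.1, so that the replicate number is not taken as a pairing. Genes within the 4.16 to 5.31 log2 units of background in P tumours carry no reliable order, and 6 tumours limit the precision of every SD.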
